A study of Rattus norvegicus with 421 samples.

Results

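The gene described here is Abcc3, which encodes an export pump of the liver (also called Mrp3), set beside its relative Abcc2 (Mrp2). They are 2 of the 10411 genes that the probe table names, each read by 1 of the 15866 probe sets on the array. Both were selected on their measured change in the treated livers of this series, so their changes against vehicle are given as a description and no test of those changes supports a statement. In the RefSeq annotation of the GRCr8 rat genome, Abcc3 lies on chromosome 10 from 79793571 to 79839528 and Abcc2 on chromosome 1 from 252613875 to 252672459.

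ABC transporters of the C family use ATP to move drugs, bile acids and their glutathione, glucuronide and sulfate conjugates out of cells. In hepatocytes Abcc2 sits in the canalicular membrane and exports conjugates into bile, while Abcc3 sits in the basolateral membrane and exports glucuronides and bile acids back to the blood. Abcc3 is also present in bile duct cells, and both genes are known to respond to the xenobiotic sensors CAR and PXR and to the oxidative stress factor NRF2. Abcc3 is known for low levels in untreated rat liver and for its induction by phenobarbital-like compounds and in cholestasis.

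Rats received 1 of 30 compounds or its vehicle, and liver RNA was hybridised to Affymetrix arrays, 293 from 98 treated groups and 128 from 38 vehicle groups. The study's methods, which cover part of these compounds, give male Wistar Hanover rats of 8 to 10 weeks, dosed by gavage. By the same methods, treated animals for the arrays had been selected for liver changes in histopathology, which limits each group as a sample of the dosed rats. Each array is a whole piece of liver, so fewer cells of a type and less RNA per cell cannot be told apart. Groups held 3 animals with few exceptions, including diethyl-stilbestrol on day 1 with 2, and the animals fell into 10 study blocks. The 7 measured hepatocyte markers, albumin among them, averaged 13.47 to 15.09 on the log2 scale, high on the array's scale as the liver label implies. The vehicles were corn oil, carboxymethylcellulose and, for acetaminophen, saline.

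The compounds, with their doses in mg/kg, were piperonyl-butoxide (PBO, 1200), cyproterone acetate (CPA, 100), phenobarbital (PB, 80), methylendianiline (MDA, 50), acetaminophen (Aap, 4250), 1,4-dichlorobenzene (DCB, 300), DHEA (600), methapyrilene (MPy, 60), ethionine (ETH, 200), diethyl-stilbestrol (DES, 10), 2-nitrofluorene (2-NF, 44), thioacetamide (TAA, 19.2), N-nitrosomorpholine (NNM, 3.5), C.I. Direct Black (CIDB, 146) and 3-methylcholanthrene (3-MC, 25). The others were methylcarbamate (Mcarb, 400), aflatoxin B1 (AB1, 0.24), acetamide (AA, 3000), dimethylnitrosamine (DMN, 4), allyl alcohol (AlAl, 36), clonidine (Clon, 0.1), propranolol (Prop, 40), N-nitrosopiperidine (NPip, 20), 2-acetylaminofluorene (2-AAF, 1.2), prazosin (Praz, 1), ibuprofen (Ibup, 94), nifedipine (Nif, 3), Wy-14643 (Wy, 60), NNK (20) and cefuroxime (CFX, 250). Sampling was on days 1, 3, 7 or 14, not all of them for every compound, and at 6, 12, 24 and 48 hours for acetaminophen. For the compounds that the study's methods describe, the doses were given each day for up to 14 days. Their later days thus follow repeated doses. Those methods do not describe the other compounds, acetaminophen among them. Values are log2 intensities, and a change is the treated mean minus the mean of the vehicle group that the label names. A gene was called where limma gave an adjusted p (Benjamini-Hochberg) below 0.05 together with a 1.5-fold or larger change.

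The promoter of Abcc2 is shown because Abcc2 is the member whose upstream sequence could be read from RefSeq. It covers GRCr8 chr1:252613625-252613924 on the plus strand, 250 bases before to 50 bases after the gene's start, written 5′ to 3′. Capitals mark 1 match to TGACNNNGC, the core of the antioxidant response element through which NRF2 acts, and 2 matches to AGGTCA, the half-site of nuclear receptors such as CAR and PXR, both searched on either strand.

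Abcc2: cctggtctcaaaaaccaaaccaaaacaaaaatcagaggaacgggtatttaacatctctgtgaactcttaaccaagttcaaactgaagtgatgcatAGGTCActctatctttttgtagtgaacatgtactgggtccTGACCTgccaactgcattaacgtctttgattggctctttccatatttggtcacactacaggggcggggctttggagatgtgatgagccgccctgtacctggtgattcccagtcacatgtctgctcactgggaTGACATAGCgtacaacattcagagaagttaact

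The matches overlap no other marked match. Of all 33469 promoters of this length in the table, 12.1% hold TGACNNNGC and 16.2% hold AGGTCA, so each match is a description of these letters.

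In vehicle livers Abcc3 was low and nearly constant. Over the 128 vehicle arrays the lowest value was 6.18, the median 6.46 and the highest 6.79, and the means of the 38 vehicle groups ran from 6.31 to 6.59. Abcc2 ran from 9.42 to 11.64 with a median of 10.75. Each probe set has its own response, so these levels do not rank the 2 genes.

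The genes were chosen on treated livers against vehicle livers, and not on differences among the vehicle livers, which were tested. Abcc3 averaged 6.43 ± 0.05 (SD, n = 3 blocks) in corn oil and 6.47 ± 0.04 (SD, n = 6 blocks) in carboxymethylcellulose, a difference of -0.04 that did not pass an exact permutation test over blocks (two-sided p = 0.286, the smallest possible being 0.0238). Abcc2 averaged 10.75 ± 0.08 (SD, n = 3 blocks) in corn oil and 10.81 ± 0.09 (SD, n = 6 blocks) in carboxymethylcellulose, which did not pass the exact permutation test either (p = 0.381). Between day 1 and day 14 the vehicle level of Abcc2 differed by 0.01 ± 0.29 (SD, n = 8 blocks; exact two-sided sign-flip permutation p = 0.922), and that of Abcc3 by less than 0.01 with an SD of 0.08 (exact permutation p = 1.0). In the saline animals Abcc2 stood at 11.18, 11.37, 10.76 and 10.67 after 6, 12, 24 and 48 hours, a change with time that passed limma's F test (adjusted p = 0.0142), as did 6.56% of all probe sets. Abcc3 in the same animals stood at 6.51, 6.49, 6.48 and 6.38 (limma adjusted p = 0.996).

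Against this base Abcc3 was raised in many treated livers and was called lower in none. The lowest of all arrays read 6.04, near the vehicle median of 6.46. How far this probe set can read below its vehicle level was not tested, so the lack of lower calls may be limited by it. Of the 293 treated arrays 84, in 40 groups, lay above the highest vehicle array and 2 below the lowest, and in 18 groups every animal lay above it. Abcc3 was called higher in 20 of 98 treated groups, from 10 compounds, where 1.02% of all probe set and group pairs were called higher and 0.731% lower. At the last time point of each compound it was called higher in 10 of 30, where 1.15% of pairs were called higher and 0.857% lower. Since these changes chose the gene, nothing is read from those counts. The counts of arrays outside the vehicle range were not made for other probe sets and only describe this gene.

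**Figure D1:**
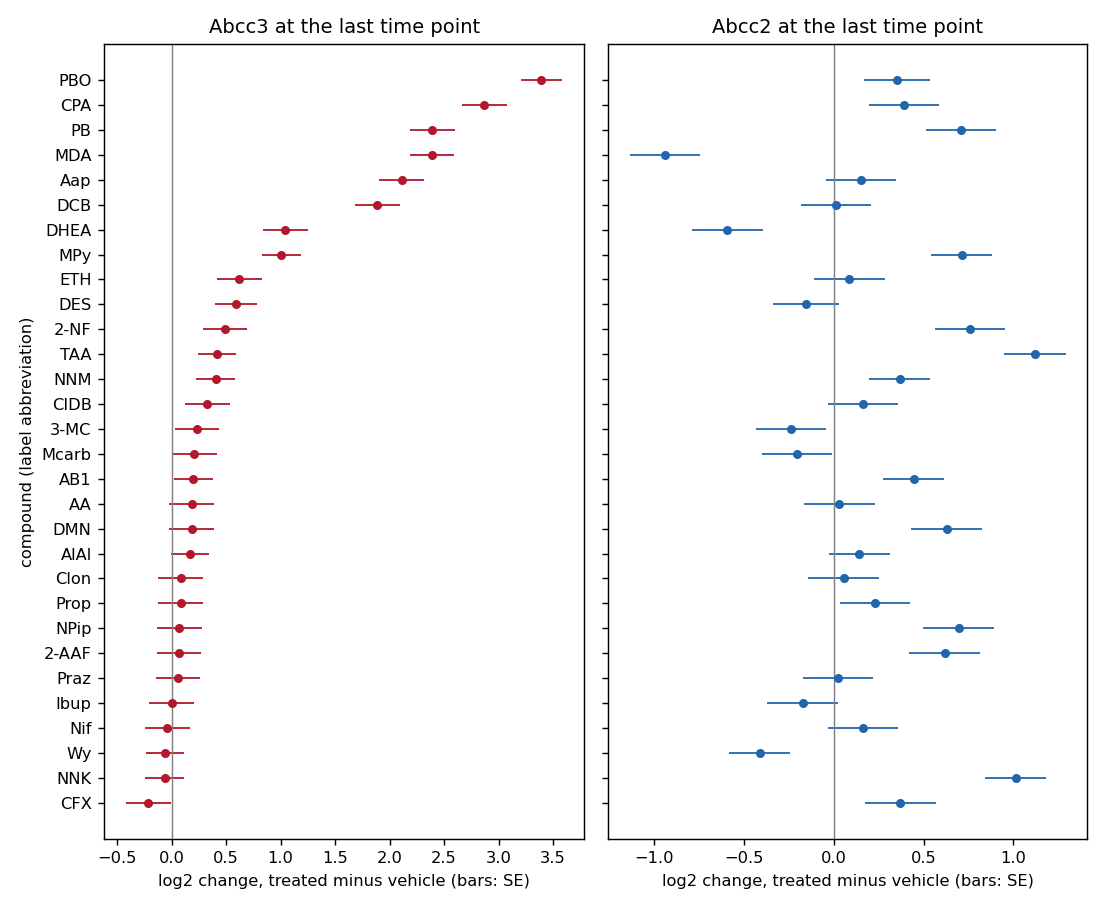
Change of Abcc3 (left) and Abcc2 (right) at the last time point of each of 30 compounds, on the log2 scale against vehicle, with the SE of the limma fit as bars, ordered by Abcc3. Abcc3 ran from -0.21 in CFX to 3.39 in PBO, and the order of Abcc2 is a different one, with MDA lowest at -0.94 and TAA highest at 1.12.

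The order was led by PBO with a change of 3.39 ± 0.19 (SE), a 10.5-fold higher level. CPA followed with 2.87 ± 0.20, PB and MDA with 2.39 ± 0.20 each, Aap with 2.11 ± 0.20 and DCB with 1.89 ± 0.20. These SEs pool the spread over all groups. The treated animals themselves had SDs of 1.24 in MDA, 0.87 in Aap, 0.56 in DCB and 0.27 in PB, so the precision differs between compounds. DHEA (1.04 ± 0.20) and MPy (1.01 ± 0.18) came next. The last 2 called were ETH (0.62 ± 0.20) and DES (0.59 ± 0.19), and the first not called was 2-NF at 0.49 ± 0.20. Of the 29 gaps between neighbours in this order, 4 exceeded their own SE from the pooled spread, those below PBO, CPA, DCB and MPy. A gap over its SE is not a test, and the order within the other stretches is not settled by these animals. When 1 animal number was left out at a time, 8 of the 10 calls were kept and 2 lost, ETH (0.38 without treated animal 2) and DES. Among the compounds not called, 2-NF, TAA (0.42) and NNM (0.40) had every treated animal above every vehicle animal. How many probe sets separate in this way was not counted, so nothing is read from it. The low end held Wy (-0.06), NNK (-0.06) and CFX (-0.21), and in CFX all treated animals were below their vehicles. The last time point was day 3 for PBO, DES and Wy, 48 hours for Aap and day 7 or 14 for the others. The order therefore mixes times. On day 3 DHEA (-0.04) and DCB (0.04) were not called either, while CPA, PB and MPy were, so a later Abcc3 change in Wy was not measured.

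By the study's classes, the 8 non-genotoxic carcinogens ran from 0.18 to 3.39 with a median change of 0.81. The 2 genotoxic carcinogens, DMN and CIDB, stood at 0.18 and 0.33. The 2 non-carcinogens, Nif and CFX, stood at -0.04 and -0.21. The 3 compounds of undefined class spanned -0.06 for Wy, 0.42 for TAA and 2.87 for CPA. In these values both non-carcinogens were below every compound of the genotoxic and non-genotoxic classes. Abcc3 is in the study's own mRNA signatures for carcinogens against non-carcinogens and for non-genotoxic against genotoxic carcinogens. Those signatures were inferred from compounds of these classes, so the class order is no independent observation. The closest, Nif at -0.04 and DMN and AA at 0.18, each had an SE of 0.20, so this order is not settled by these animals. The genotoxic and non-genotoxic classes overlapped each other, and the undefined compounds spanned them. With 2 compounds in some classes they were not tested against each other.

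**Figure D2:**
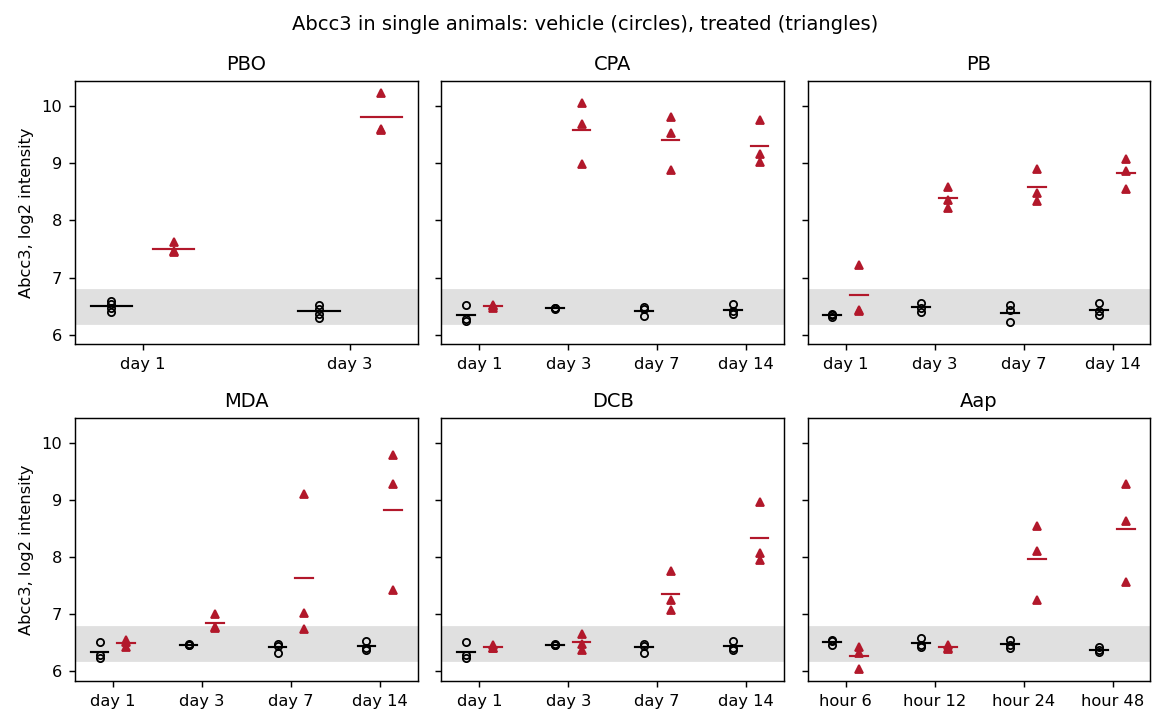
Abcc3 as log2 intensity in single animals of 6 compounds by day or hour, with vehicle animals as circles, treated animals as triangles, group means as short lines and the range of all 128 vehicle arrays as a grey band. Day 1 of CPA, MDA and DCB and the first 2 times of Aap lie in or near the band, while the last time of each compound lies above it.

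After PBO, a synergist of insecticides that inhibits cytochrome P450, the 3 animals of day 3 read 10.23, 9.60 and 9.58 for Abcc3 against 6.45, 6.30, 6.51 and 6.37 in their 4 vehicle animals. On day 1 the treated animals had read 7.62, 7.44 and 7.46, a change of 1.01 ± 0.19, the 1 call of Abcc3 on day 1 among the 21 compounds sampled then. The groups did not overlap on either day. The summed pancreas and macrophage markers differed from vehicle by -0.58 and -0.52 on day 3 and the bile duct markers by 0.30, and their part was not tested. The pancreas sum mainly follows 1 gene, Cela1. It averaged 11.03 over all arrays, against 4.62 to 7.61 for the other measured pancreas markers, so the sum does not measure pancreas cells.

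After CPA, a steroidal antiandrogen known to activate PXR in the rat, the animals of day 1 read 6.51, 6.46 and 6.52, inside the vehicle range. On day 3 they read 8.99, 10.05 and 9.69, and on day 14 9.16, 9.01 and 9.75 against 6.53, 6.41 and 6.37 in vehicle. The change thus went from 0.15 on day 1 to 3.11, 2.99 and 2.87 on days 3, 7 and 14. On day 14 the summed markers of other cells also differed from vehicle, with log2 differences of -0.96 for stellate and fibroblast, -0.91 for red cell, -0.60 for pancreas, -0.54 for macrophage and 0.34 for bile duct markers, against -0.05 for hepatocyte markers. The pancreas sum again mainly follows Cela1. The part of these markers in the Abcc3 value was not tested.

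After PB, the classical CAR activator, the change was 0.35 on day 1 and 1.91, 2.19 and 2.39 on the later days. The day 1 value rested on 1 animal at 7.22, while the other two read 6.44 and 6.41. On day 14 the animals read 8.87, 8.55 and 9.08 against 6.42, 6.55 and 6.34 in vehicle. One of these vehicle livers held muscle transcripts, and without the arrays of that kind the change was 2.35.

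DCB and DHEA came later. DCB stood at 0.09 and 0.04 on days 1 and 3, then at 0.94 and 1.89, with 8.07, 8.96 and 7.95 in the animals of day 14. The day 7 call was lost without animal 2 (0.74) and without single vehicle animals. CPA, MDA and DCB were all set against the same corn oil animals. DHEA stood at -0.13 and -0.04, then at 0.81 and 1.04, with 7.96, 7.10 and 7.43 on day 14. MPy was already at 0.70 on day 3 and reached 1.01 on day 7. ETH moved least steadily, with 0.20, 0.47, 0.26 and 0.62.

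**Figure D3:**
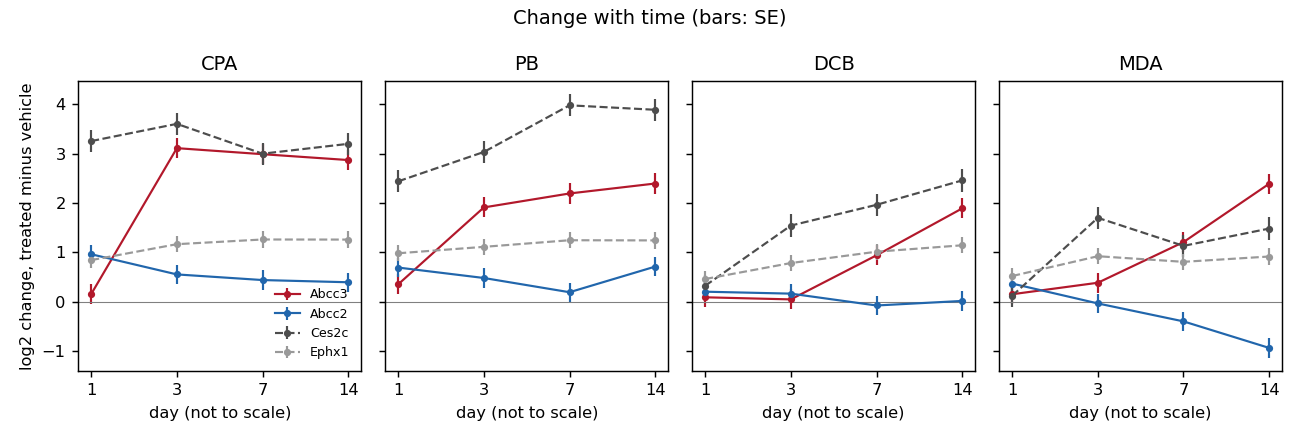
Change of Abcc3, Abcc2, Ces2c and Ephx1 by day after CPA, PB, DCB and MDA, on the log2 scale against vehicle with SE bars. On day 1 of CPA and PB Ces2c was at 3.26 and 2.44 while Abcc3 was at 0.15 and 0.35.

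On day 1, when Abcc3 was not called in CPA or PB, 9 of 15 measured CAR and PXR targets were called higher and 0 lower in CPA, with a median change of 0.86, and 5 higher and 0 lower in PB, with a median change of 0.68. In CPA on day 1, where 1.99% of probe sets were called higher, the carboxylesterase Ces2c stood at 3.26, the epoxide hydrolase Ephx1 at 0.84, the glucuronosyltransferase Ugt2b1 at 1.48 and the cytochrome P450 Cyp3a23-3a1 at 1.02, all called. In PB on day 1, where 0.0567% of probe sets were called higher, Ces2c stood at 2.44, Ephx1 at 0.98, Ugt2b1 at 1.92 and Cyp3a23-3a1 at 0.77, all called. The difference in timing between Abcc3 and these genes was not tested. In DCB Ces2c was called from day 3 with 1.54, again before Abcc3.

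MDA, an aromatic amine known to injure bile ducts, gave the widest spread between animals. On day 14 Abcc3 read 9.78, 9.27 and 7.43 and on day 7 it read 9.11, 6.74 and 7.03, against vehicle values of 6.33 to 6.53 on both days. The SD of the treated animals was 1.24 on day 14, against 0.39 in CPA. Without animal 3 the day 14 change was 3.09 and without animal 1 it was 1.91, and the day 7 change of 1.21 was 0.46 and not called without animal 1. With only the compared groups in the fit, MDA was not called on either day. The same animals ranked in reverse for Abcc2, which read 9.46, 9.57 and 10.53 on day 14. Of 9 measured bile duct markers 3 were called higher on day 14, where 0.744% of all probe sets were, Epcam with 1.63, Cd24 with 0.78 and Tspan8 with 0.77, and the median change of the list was 0.55 against 0.00 over all probe sets. The log2 of their summed intensity was 11.08, 10.79 and 9.79 in animals 1, 2 and 3, against 9.66 to 9.79 in vehicle. Animal 3 had the lowest Abcc3 and the lowest bile duct marker sum. The stellate and fibroblast sum (12.04, 11.90 and 11.21) and the macrophage sum (12.20, 12.03 and 11.86) ranked these 3 animals in the same way, and the other sums did not. Epcam was called higher at the last time point in 13 of 30 compounds. On day 7 the bile duct marker sum was 10.84, 9.69 and 9.67, highest in the animal with the highest Abcc3, as was the macrophage sum. The keratins Krt19 and Krt7, which define bile duct cells, were not called. The part of these cells in the Abcc3 value was not tested.

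Aap, at a dose known to deplete glutathione and injure the liver, held Abcc3 at -0.25 after 6 hours and -0.07 after 12 hours, then at 1.48 and 2.11 after 24 and 48 hours. The animals of 48 hours read 8.64, 9.28 and 7.56 against 6.35, 6.43 and 6.37 in saline. Without animal 3 the change was 2.58 and without animal 2 it was 1.72. Here the bile duct marker sum was 11.36, 9.73 and 11.81 in animals 1, 2 and 3, against 9.77 to 9.82 in saline. It was lowest in the animal with the highest Abcc3, and what the sum says of bile duct cells was not tested. The 1 bile duct marker called was Spp1 with 2.64. Of 4 macrophage markers 3 were called higher, led by Gpnmb with 4.28, where 6.01% of all probe sets were called higher, and their sum was 13.19 to 13.88 against 11.80 to 11.88 in saline. The summed red cell and pancreas markers differed from saline by -2.48 and -1.24 on the log2 scale, and the hepatocyte sum differed by 0.01. Here too the pancreas sum mainly follows Cela1. The part of all these markers in the result was not tested.

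DES, a synthetic estrogen, read 6.61, 6.60 and 7.79 on day 3. Without animal 3 its change was 0.20, so the DES call rested on that animal.

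Abcc2 followed another pattern. It was called higher in 19 of 98 groups, from 14 compounds, and lower in 7, from 4 compounds, against the same 1.02% and 0.731% of all pairs. At the last time point 8 compounds were called higher, TAA with 1.12 ± 0.17 (SE), NNK with 1.01 ± 0.17, 2-NF with 0.76 ± 0.20, MPy and PB with 0.71, NPip with 0.70, DMN with 0.63 and 2-AAF with 0.62. Those called lower were MDA with -0.94 ± 0.20 and DHEA with -0.59 ± 0.20, both of which were called higher for Abcc3. When 1 animal number was left out at a time, 3 of these 10 calls were kept, TAA, NNK and MPy, and 7 were lost, among them MDA (-0.75 without treated animal 1) and PB (0.51 without treated animal 3). Among the 29 neighbours in the order of Abcc2, 1 gap exceeded its SE, that between DHEA and MDA.

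The TAA animals of day 7 read 11.94, 11.94 and 11.97 for Abcc2 while their Abcc3 read 6.75, 6.97 and 7.07. The NNK animals of day 14 read 11.77, 11.42 and 11.47 for Abcc2 and 6.52, 6.41 and 6.28 for Abcc3. One NNK liver held pancreas transcripts, and without such arrays the Abcc2 change was 0.91. Abcc3 in NNK was in the vehicle range in all 3 animals.

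In time Abcc2 also differed from Abcc3. In CPA it was highest on day 1 with 0.96 and then stood at 0.55, 0.44 and 0.39, while Abcc3 went the other way between days 1 and 3. In Aap it was at -0.49 and -1.27 after 6 and 12 hours and at 0.62 and 0.15 after 24 and 48 hours. In ETH it was at -0.65 and -0.996 on days 1 and 3 and at 0.14 and 0.09 on days 7 and 14.

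**Figure D4:**
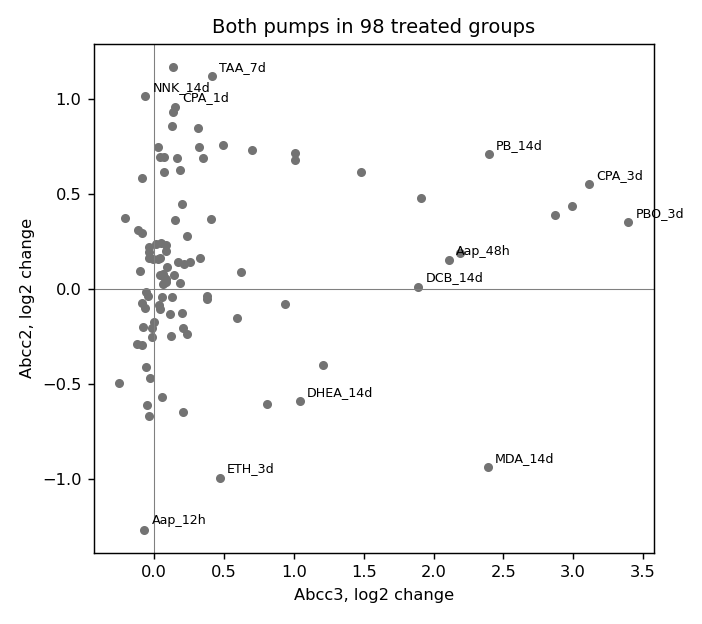
Change of Abcc2 against that of Abcc3 in 98 treated groups, each on the log2 scale against vehicle, one point per group. The groups with the highest Abcc3 span Abcc2 changes from -0.94 in MDA on day 14 to 0.71 in PB on day 14, and Pearson's r was 0.12.

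Across the 98 groups Pearson's r between the changes of both pumps was 0.12, and across the 30 last time points it was -0.09. Groups share vehicle animals, so the points are not independent. Both genes were called higher in 5 groups, and in 3 Abcc3 was called higher and Abcc2 lower. Abcc3 alone was called in 12 groups, and Abcc2 alone was called higher in 14 and lower in 4.

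Other transporters of the liver were counted in the same fit. Of 9 listed further members of the C family 5 were measured and none was called higher in any group. The drug pump Abcc1 and the nucleotide pump Abcc5 had no call. Abcc6, which is needed for hepatic ATP release, was called lower in 15 groups, lowest in ETH on day 14 with -1.57. The potassium channel subunits Abcc8 and Abcc9 were called lower in 2 and 9 groups.

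**Figure D5:**
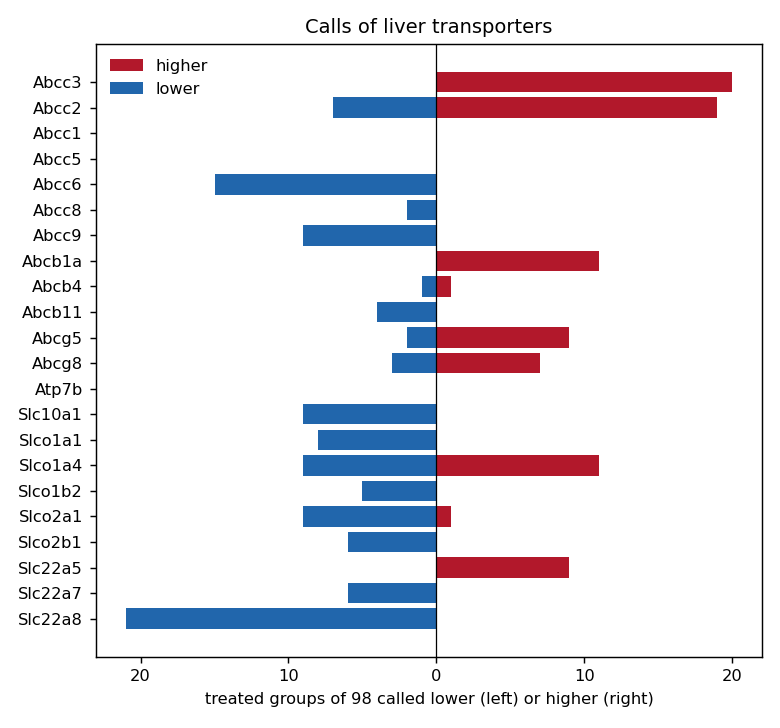
Number of 98 treated groups in which each measured transporter was called higher (red, to the right) or lower (blue, to the left). Abcc3 has 20 higher and 0 lower calls, and Slc22a8 has 0 higher and 21 lower.

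Of the canalicular transporters 6 of 10 listed were measured. The multidrug pump Abcb1a was called higher in 11 groups and lower in none, up to 1.26 in Aap at 24 hours. Over the 98 groups, which share vehicle animals, its changes had a Pearson's r of 0.56 with those of Abcc3. The sterol half-transporters Abcg5 and Abcg8 were called higher in 9 and 7 groups and lower in 2 and 3. Abcg5 reached 2.63 in CPA on day 3. The bile salt export pump Abcb11 was called lower in 4 groups, lowest in ETH on day 1 with -1.14, the phospholipid flippase Abcb4 higher in 1 and lower in 1, and the copper pump Atp7b in none.

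Of 13 listed sinusoidal transporters 9 were measured. The organic anion exchanger Slc22a8 was called lower in 21 groups, as far as -2.17 in Clon on day 7, with r = -0.54 to Abcc3. The bile acid uptake carrier Slc10a1 was called lower in 9 groups, and the anion uptake carriers Slco1a1, Slco1b2 and Slco2b1 in 8, 5 and 6. Slco1a4 went both ways, higher in 11 and lower in 9, between 1.71 in CPA on day 3 and -1.91 in 3-MC on day 14. The prostaglandin carrier Slco2a1 was called higher in 1 and lower in 9, Slc22a7 lower in 6, and the carnitine carrier Slc22a5 higher in 9, up to 1.86 in DHEA on day 7.

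For the 6 compounds with the highest Abcc3, lists of genes known to share its sensors were counted at the last time point. Of the listed genes, 15 of 20 CAR and PXR targets, 20 of 27 NRF2 targets, 27 of 41 conjugating enzymes and 15 of 18 PPARA targets were measured. All listed Ugt1a genes and Cyp2b1, Cyp2b2 and Cyp3a1 were among those missing. Of 15 measured CAR and PXR targets, 8 were called higher and 0 lower in PBO, 8 and 0 in CPA, 7 and 0 in PB, 6 and 0 in DCB, 3 and 1 in MDA, and 5 and 3 in Aap. Their median changes were 0.90, 0.71, 0.63, 0.52, 0.05 and -0.15, while the median over all probe sets stayed between -0.06 and 0.03. Over all probe sets the shares called higher and lower were 1.42% and 1.13% in PBO, 0.548% and 1.79% in CPA, 0.416% and 0.208% in PB, 0.202% and 0% in DCB, 0.744% and 0.75% in MDA, and 6.01% and 4.03% in Aap. Ces2c stood at 3.66, 3.20, 3.89, 2.46, 1.48 and 0.59 in that order of compounds, and the retinal dehydrogenase Aldh1a1 at 3.07, 3.05, 4.28, 3.04, 2.63 and 2.57. In Aap the P450 genes Cyp3a2 and Cyp3a9 fell by 2.20 and 1.89 on the log2 scale.

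Of 20 measured NRF2 targets, 8 were called higher in PBO, 3 in CPA, 2 in PB, 3 in MDA, 13 in Aap and 4 in DCB, and lower in 1 each in CPA and MDA and in 0 in the others. The glutathione transferase Gsta3 rose in all 6, by 3.93 in PBO, 4.33 in CPA, 2.66 in PB, 3.11 in MDA, 3.71 in Aap and 3.72 in DCB. In Aap Gstp1 rose by 3.48, the sulfiredoxin Srxn1 by 2.64 and the aldo-keto reductase Akr7a3 by 2.82. Conjugating enzymes, which make the substrates of both pumps, were called higher in 9 of 27 in PBO, 11 in CPA, 5 in PB, 1 in MDA, 5 in Aap and 2 in DCB, and lower in 2 in PBO, 3 in Aap and 0 in the others. The sulfotransferase Sult2a2 rose by 3.10 in CPA, while Sult1a1 fell by 1.31 in PBO and Sult1e1 fell by 1.43 in Aap.

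Of 15 PPARA targets 10 were called higher in PBO, led by the pantetheinase Vnn1 with 2.38, and 0 in CPA, PB and MDA, with 0 lower in PBO, PB and MDA and 2 lower in CPA. The AHR target Cyp1a1 rose by 2.91 in PBO and 2.84 in MDA. In Aap 7 of 9 sinusoidal transporters were called lower, and the bile acid enzymes Cyp7a1 and Slc27a5 fell by 3.69 and 1.66. Among the sensors, Nr1h4, the bile acid receptor, fell by 0.77 in Aap. At the last time point none of 11 was called in PBO, CPA, PB, MDA or DCB. At an earlier time, day 7 of MDA, the CAR gene Nr1i3 had its lowest change of all groups, -1.13.

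The 3 compounds at the low end were not all silent. In Wy, a PPARA activator, 15 of 15 PPARA targets were called higher, led by Acot1 with 7.57, where 2.44% of probe sets were called higher and 1.41% lower, and Abcc3 read 6.37, 6.32 and 6.71. CAR and PXR targets split there, 4 higher with Aldh1a1 at 3.49 and Ces2c at 1.61, and 4 lower with Cyp3a9 at -2.55 and Ugt2b1 at -2.14. In NNK, where 0.813% of probe sets were called higher and 0.353% lower, 3 CAR and PXR targets were called higher and 1 lower, with a median change of 0.03, and 3 NRF2 targets were called higher and 0 lower. Aldh1a1 stood at 3.82, Ces2c at 2.10, Gsta3 at 2.12, Cyp3a23-3a1 at -0.66 and the sulfotransferase Sult2a6 at -1.56 there, all called, with Abcc3 at -0.06. The sensor Nfe2l2, which encodes NRF2, was called at 0.92. In CFX 0% of probe sets were called in either direction.

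Over all 98 groups, CAR and PXR targets were called higher in 16.7% of their gene and group pairs and NRF2 targets in 12.4%, against 1.02% of all probe set pairs. Ces2c and Ephx1 were each called higher in 49 groups and Aldh1a1 in 51, more than the 20 of Abcc3. Nfe2l2 was called higher in 20 groups and lower in 2, with r = -0.22 to Abcc3. Nr1i3, which encodes CAR, was called higher in 3 and lower in 5, and Nr1i2, which encodes PXR, in 1 and 1.

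The genes whose change was most like that of Abcc3 across the 98 groups, by Pearson's r, were Reep6, Gsr and Zdhhc2 with 0.68 each, Gsta3 and Rexo2 with 0.66, Gpx2 with 0.65, Anxa7 with 0.63, Gsta4 with 0.62, Ces2c with 0.61 and Gaa with 0.60. Gsr is glutathione reductase and Gpx2 a glutathione peroxidase. The lowest r belonged to Car3 with -0.61, Itih3 with -0.59, Rgn with -0.58, Tspan12 with -0.57 and Dmxl2 with -0.56. Car3, a carbonic anhydrase of the liver, stood at -2.79 in Aap at 48 hours and at -0.17 in PB on day 14. Of the 10 most alike genes 8 have a promoter in the RefSeq table. TGACNNNGC was found in 3 of these 8, those of Reep6, Gsta3 and Gpx2, against 12.1% of all promoters, and AGGTCA in 1, that of Gpx2, against 16.2%. The genes were ranked on the changes that chose Abcc3 and 8 promoters are few, so nothing is read from these counts. For Abcc2 the most alike were Copa with 0.57, Slc35e3 and Gch1 with 0.56, and Gstm1 and Akr7a3 with 0.55, and none of these is among the 10 of Abcc3. By Pearson's r over the 30 last time points 6 of the 10 genes named for Abcc3 stayed among the 10 highest, and by Spearman's rho over the 98 groups 3 did.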

How the data were processed

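Livers were profiled on Affymetrix RAE230A arrays. The deposited table holds log2 intensities of 15866 probe sets in 293 treated and 128 vehicle livers, which the authors normalized by RMA (version not given in the sources used here). No raw intensities were used. GEO's platform table gave 1 symbol to 12783 probe sets, several to 312 and listed none for 2771; symbols were updated through RefSeq gene IDs for 12748. limma 3.58.1 in R 4.3.3 was fitted with 1 mean per group over all arrays, with 285 residual degrees of freedom and Benjamini-Hochberg adjustment over all probe sets, and its calls were tested on simulated data. Vehicle groups were compared by exact permutation over study blocks (scipy 1.17.1). Samples were grouped by their labels, and replicates are animals of 1 group. The number of arrays limits the precision. The members and gene lists, and the rules for named genes (Abcc3, Abcc2, the most and least alike genes, all transporters, the largest called members of other lists), were chosen with earlier results of these data known. Results were recomputed with only both compared groups in the fit, after a further quantile step, without probe sets averaging under 6, with the replicate number as a block, without single replicates, without 6 arrays that held pancreas or muscle transcripts, and with calls by adjusted p alone. Replicate numbers were not taken as pairs: the deviations of same-numbered treated and vehicle animals had a mean correlation of 0.0131 over 98 groups, and every pair exceeded 0.1 in 4 of them.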

Additional observations from a re-analysis of the deposited data

Results flagged for a closer look

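Some time points of 1 compound moved in opposite directions in every animal, a difference that was not tested. After Aap, all animals were above vehicle for Abcc3 at 48 hours (2.11) and below it at 6 hours (-0.25). For Abcc2 all were above at 24 hours (0.62) and below at 12 hours (-1.27). After MDA, all animals were above vehicle for Abcc2 on day 1 (0.36) and below on day 14 (-0.94). No group of 4 to 10 animals, of 12 tested for both genes together, held an animal far from the others by Dixon's test, which chance passes in about 1 of 20 groups.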

How the results depend on the processing

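The count of 10 compounds with Abcc3 called higher at the last time was 7 in the fit of the compared groups alone, which lost MDA, ETH and DES, 9 with the replicate block, which lost DES, and 8 to 10 when 1 replicate was left out. Over all groups the 20 calls became 15 and 19 in those fits and 17 to 20 without a replicate. The 19 higher calls of Abcc2 ranged from 11 to 19 without a replicate (12 without treated animals numbered 1, 11 without vehicle animals numbered 2), and its 7 lower calls from 4 to 8 (4 without treated animals numbered 2). The cause was not tested. The replicate block left the Abcc2 counts at 19 and 7. Of single changes at the last time, 10 moved by more than the spread between animals and 696 did not. Part of the 696 could not move, since the filter on the mean and the fit of the compared groups keep each change as it is. Leaving out arrays also does not touch groups without them. The count is therefore no measure of robustness. Those that moved were Abcc3 in Aap, DCB (1.57 without animal 2), DES and MDA, and Abcc2 in Aap (-0.32 without animal 2, 0.52 without animal 3), MDA (-1.28 without animal 3) and PB (0.96 without animal 2). In vehicle livers, day 7 minus day 3 was -0.0245 for Abcc3 and 0.105 for Abcc2 (exact permutation p = 0.0195), and the difference of day 14 minus day 1 changed sign without single blocks, between -0.0137 and 0.0154 for Abcc3 and between -0.0446 and 0.0758 for Abcc2, and was -0.0127 for Abcc2 after quantile normalization. The lists of genes most like Abcc3 shared 6 and 3 of 10 with Pearson's r over last times and Spearman's rho. Other probe sets of both genes could not be tried, since the probe table names 1 for each.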
